A study of Mus musculus with 26 samples.

Results

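The cytosolic sulfotransferases studied here are 9 genes, *Sult1a1*, *Sult1b1*, *Sult1c1*, *Sult1c2*, *Sult1d1*, *Sult1e1*, *Sult2b1*, *Sult4a1* and *Sult5a1*, among the 23337 genes of the count tables. They were listed by symbol around *Sult1e1*, the estrogen sulfotransferase, which was chosen by its ArKI against WT difference in these counts, and the question was whether its relatives are higher too. The values of *Sult1e1* are therefore given as a description without a test, and tests were made for the other 8 members.

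ArKI mice carry a knockin of the androgen receptor in which its SUMO acceptor lysines were changed to arginines, made in hybrid embryonic stem cells and bred to C57BL/6N mice. The gene lies on the X chromosome, so the receptor in ArKI males is the mutant one in every cell. WT mice served as controls, and all 26 samples are from males of 3 months with a C57Bl/6N and 129 hybrid background, with no other treatment given in the labels. RNA was sequenced from the initial segment of the epididymis (IS) and the caput, the next segment downstream, with 5 ArKI and 5 WT samples each, and from the testis with 3 ArKI and 3 WT samples. The IS and caput were taken from the same mice of each genotype, and which samples share a mouse is not given, so tests between segments treat samples of 1 mouse as independent. The counts cannot show the substitutions themselves.

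Cytosolic sulfotransferases transfer a sulfate group from the donor PAPS to small molecules, which makes steroids, phenols and amines more soluble and usually less active. A sulfated estrogen no longer binds the estrogen receptors, so SULT1E1 limits the local action of estradiol, and in mouse testis the enzyme is known from Leydig cells. Estrogen acts through its receptor ESR1 in the efferent ducts, the tubules that lead from the testis to the IS and reabsorb fluid. The family divides by substrate, with SULT1A1 acting on simple phenols, SULT1B1 on phenols and thyroid hormones, SULT1D1 on catecholamines and related amines, and SULT2B1 on cholesterol and other hydroxysteroids, whereas SULT4A1 is best known from brain and has no settled substrate.

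In the RefSeq annotation of GRCm38.p6 (mm10), *Sult1e1* spans chr5:87575968-87591611 on the minus strand, with *Sult1d1* (chr5:87554650-87569006) and *Sult1b1* (chr5:87513327-87538195) as its nearest downstream neighbours on the same strand. The coding sequence of *Sult1e1* is 66.4% identical to that of *Sult1b1* and 66.2% identical to that of *Sult1d1*, against 60.4% to 63.3% for the other 6 members. None of the 50-base stretches of the *Sult1e1*, *Sult1d1* or *Sult1b1* transcripts occurs in another gene, so a 50-base read of these 3 genes matches no other gene exactly. The share of such stretches found elsewhere was 8.25% in *Sult1a1*, 2.93% in *Sult2b1*, 1.78% in *Sult5a1* and 0.723% in *Sult1c2*. The 250 bases before the annotated transcription start of each of the 3 chromosome 5 neighbours are printed below from RefSeq's table, since these genes lie side by side and were the members with the largest differences in the IS. Capitals mark each match to 2 words searched on both strands, the androgen receptor hexamer AGAACA (or TGTTCT) and the nuclear receptor hexamer AGGTCA (or TGACCT).
Sult1e1 (chr5:87591612-87591861, minus strand): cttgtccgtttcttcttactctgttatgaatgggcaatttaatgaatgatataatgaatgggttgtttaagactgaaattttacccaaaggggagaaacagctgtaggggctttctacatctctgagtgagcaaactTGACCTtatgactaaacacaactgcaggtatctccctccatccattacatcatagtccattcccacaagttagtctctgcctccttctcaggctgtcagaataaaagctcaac
Sult1d1 (chr5:87569007-87569256, minus strand): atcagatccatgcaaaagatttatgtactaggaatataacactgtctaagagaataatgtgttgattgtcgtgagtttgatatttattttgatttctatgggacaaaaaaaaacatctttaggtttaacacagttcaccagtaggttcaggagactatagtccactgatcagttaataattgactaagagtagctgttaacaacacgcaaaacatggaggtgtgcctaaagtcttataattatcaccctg
Sult1b1 (chr5:87538196-87538445, minus strand): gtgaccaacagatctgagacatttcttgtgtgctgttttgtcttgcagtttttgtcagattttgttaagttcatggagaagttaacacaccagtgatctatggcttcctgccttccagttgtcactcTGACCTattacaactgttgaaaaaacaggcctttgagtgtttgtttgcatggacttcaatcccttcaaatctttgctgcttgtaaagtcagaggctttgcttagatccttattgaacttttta

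The window of *Sult1e1* holds TGACCT 113 bases before the start, and that of *Sult1b1*, taken at the first of its 2 starts, holds the same word at 123 bases, while the second start has TGTTCT at 184 bases. *Sult1d1* has neither word in its window. Among the other members with an entry, AGAACA stands 242 bases before *Sult1c2*, 58 bases before *Sult1c1* and 34 bases before *Sult1a1*, which also has TGTTCT at 212 bases. The windows of *Sult2b1* and *Sult5a1* hold neither word, and no entry was used for *Sult4a1*. Of 32851 windows of this length, 16.1% hold the androgen receptor hexamer and 14% the nuclear receptor hexamer, so these matches are common and describe only the letters present.

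Total counts ranged from 5829074 to 9770625 in the IS, 4125768 to 11913469 in the caput and 14077013 to 21376604 in the testis. A level of 3 counts, used as the floor, corresponds to 0.295 to 0.480 CPM (counts per 1000000 counts) in the IS, 0.234 to 0.631 in the caput and 0.176 to 0.265 in the testis, and covers counting error only. IS and caput samples were in one sequencing run and testis samples in another, and the effects of run and of tissue cannot be told apart between testis and epididymis. The dissected tissue matched its labels by the IS principal cell and sperm lists. The summed IS principal cell list reached at least 29240 CPM in every IS sample and at most 4283 CPM in the caput. The sperm list was at least 18475 CPM in every testis sample. The caput principal cell list overlapped between ArKI IS (35701 to 57809 CPM) and ArKI caput (44788 to 73338 CPM). In WT samples it was 40659 to 48848 CPM in the IS and 63695 to 76052 CPM in the caput. The Sertoli cell list was higher in WT caput (23839 to 28861 CPM) than in WT testis (1503 to 1630 CPM). Several lists moved with genotype. The IS principal cell list was 34712 to 37550 CPM in WT IS and 29240 to 34510 CPM in ArKI IS. The sperm list was 9.06 to 59.8 CPM in WT IS and 1.19 to 4.64 CPM in ArKI IS, the smooth muscle list was 514 to 593 CPM in WT IS and 224 to 400 CPM in ArKI IS, and the basal cell list was 351 to 384 CPM in WT IS and 289 to 312 CPM in ArKI IS. The immune cell list was 87.1 to 113 CPM in WT IS and 65.2 to 95.5 CPM in ArKI IS, with overlap. In the caput the sperm list was 174 to 278 CPM in WT and 20.2 to 60.7 CPM in ArKI samples. In bulk tissue, a change in the number of cells of a type and a change in RNA per cell cannot be told apart.

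In WT tissues the most abundant member differed by tissue. Compared per length (CPM per kb of transcript), *Sult5a1* led in the WT IS at 35.3, followed by *Sult2b1* at 11.7, *Sult1a1* at 7.08, *Sult1e1* at 2.55, *Sult1c2* at 1.55 and *Sult1d1* at 1.09. The WT caput was led by *Sult2b1* at 14.2 CPM per kb, ahead of *Sult1a1* at 9.42, *Sult5a1* at 5.82 and *Sult1e1* at 4.92. In WT testis *Sult1e1* was first at 14.97 CPM per kb, followed by *Sult1a1* at 4.53, *Sult4a1* at 1.16 and *Sult5a1* at 0.588. *Sult1c1* had no count in any epididymal sample and at most 1 count in a testis sample, which limits its level to below the floor of each sample.

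*Sult1e1* was low in WT epididymis and high in all 3 ArKI tissues. In the WT IS its level was 3.53, 2.15, 3.74, 3.06 and 3.34 CPM in replicates 1 to 5, against 58.4, 80.9, 87.9, 52.0 and 69.3 CPM in the ArKI IS. WT caput gave 7.46, 5.32, 5.59, 3.44 and 8.71 CPM, and ArKI caput 80.6, 98.0, 76.2, 86.8 and 98.1 CPM. In the testis the 3 WT samples had 25.3, 19.9 and 10.6 CPM and the 3 ArKI samples 123, 114 and 137 CPM. The lowest ArKI sample lay above the highest WT sample in each tissue, which the choice of this gene fixes. The fitted log2 difference was 4.46 ± 0.20 (SE, n = 5 and 5) in the IS, 3.83 ± 0.18 (n = 5 and 5) in the caput and 2.70 ± 0.30 (n = 3 and 3) in the testis.

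**Figure D1:**
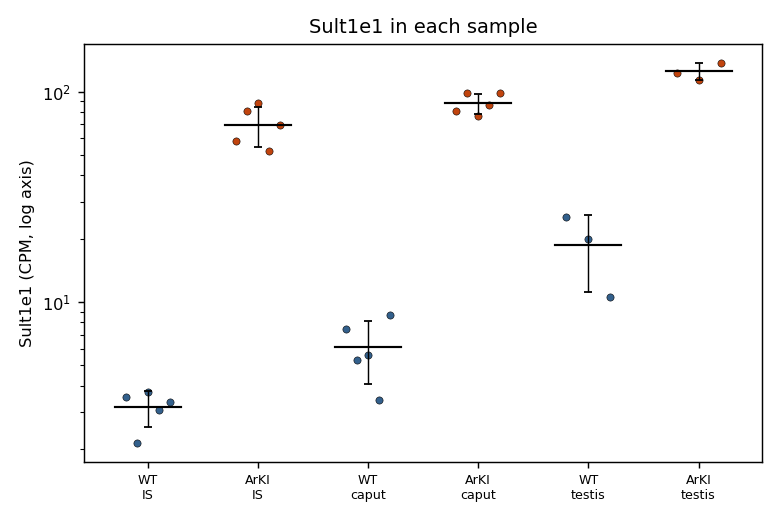
*Sult1e1* level (CPM, log axis) of each sample in the 6 groups, with WT in blue and ArKI in red, where horizontal lines are means and bars 1 SD. The WT means span 3.16 CPM (IS) to 18.6 CPM (testis), while the ArKI means lie at 69.7, 87.9 and 125 CPM.

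The tissue means of *Sult1e1* spanned a smaller ratio in ArKI than in WT samples. Mean levels were 3.16 ± 0.621 CPM (SD, n = 5) in WT IS, 6.10 ± 2.04 (n = 5) in WT caput and 18.6 ± 7.46 (n = 3) in WT testis, against 69.7 ± 14.99 (n = 5), 87.9 ± 9.97 (n = 5) and 125 ± 11.5 (n = 3) in the corresponding ArKI tissues. The WT values are part of the difference that chose the gene, so no test between tissues is given for it. Among WT samples the IS and caput overlapped, at 2.15 to 3.74 and 3.44 to 8.71 CPM, and the testis samples lay above both, at 10.6 to 25.3 CPM. In order of level, ArKI IS and ArKI caput overlapped, whereas the ArKI testis samples lay above all others. With scaling by library size only, testis and caput samples overlapped in both genotypes. ArKI testis was then at 90.7 to 113 CPM, ArKI caput at 78.4 to 113 CPM and ArKI IS at 55.8 to 98.0 CPM. WT testis was at 8.58 to 21.4 CPM and WT caput at 3.56 to 9.04 CPM.

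A Leydig cell list moved with *Sult1e1* in the testis. The summed level of its 7 genes was 776 to 992 CPM in WT testis and 1194 to 1254 CPM in ArKI testis, and 3 of the 7 rose, among them *Cyp11a1* (log2 difference 0.92 ± 0.08, adjusted p = 1.05e-06), which makes pregnenolone from cholesterol. *Insl3*, a defining product of adult Leydig cells, had a log2 difference of 0.02 ± 0.15 (adjusted p = 0.971). In the ArKI epididymis, where *Sult1e1* was also high, the whole Leydig list summed to 5.54 to 8.48 CPM in the IS, against 3.73 to 6.38 CPM in the WT IS. In the caput it summed to 14.5 to 18.6 CPM in WT and 18.5 to 25.0 CPM in ArKI samples, and both pairs of ranges overlapped. The part of the Leydig genes in the *Sult1e1* values was not tested.

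Among the other 8 members, 4 of the 5 that passed the low-count filter in the IS passed the test (adjusted p below 0.05), 3 higher and 1 lower in ArKI. Among all 13434 genes tested in the IS, 15% passed as higher and 14.6% as lower. The median log2 difference was 0.46 over the 5 members and -0.00 over all genes. The neighbour *Sult1d1* rose most. Its level in the WT IS was 2.51, 2.36, 3.04, 2.00 and 3.24 CPM in replicates 1 to 5, and in the ArKI IS 16.4, 11.6, 47.5, 20.3 and 30.1 CPM. Every ArKI sample was above every WT sample, and ArKI replicates 3 and 5 were highest. The log2 difference was 3.24 ± 0.46 (9.46-fold, edgeR adjusted p = 0.000922).

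Genes that mark the efferent ducts, other than *Pax8*, varied with *Sult1d1* from sample to sample in the ArKI IS. *Pax8* was highest in replicate 1, at 324, 244, 280, 266 and 271 CPM in replicates 1 to 5. *Lrp2*, the endocytic receptor megalin, was at 83.6, 47.6, 212, 95.2 and 121 CPM in ArKI IS replicates 1 to 5, the same order of samples as *Sult1d1*, and at 31.8 to 57.5 CPM in the WT IS. *Esr1* was at 34.8, 34.2, 70.8, 43.0 and 53.0 CPM in the ArKI IS and at 25.2 to 33.4 CPM in the WT IS. Of the 6 genes of the list, 5 were tested and 2 rose, *Lrp2* (log2 difference 1.43 ± 0.39, adjusted p = 0.0265) and *Esr1* (0.72 ± 0.21, adjusted p = 0.0325), whereas *Aqp1*, the water channel of the efferent ducts, gave 0.13 ± 0.21 (adjusted p = 0.688) and *Pax8* 0.06 ± 0.06 (adjusted p = 0.475). The list as a whole summed to 419 to 464 CPM in WT IS and 398 to 737 CPM in ArKI IS, and none of its genes was at 0 throughout. Without ArKI replicate 3, the highest for *Sult1d1*, *Lrp2*, *Esr1* and *Aqp1*, *Sult1d1* was still higher in ArKI, and over all single omissions of a sample its log2 difference stayed between 2.88 and 3.42. The part of efferent duct tissue in these values was not tested.

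**Figure D2:**
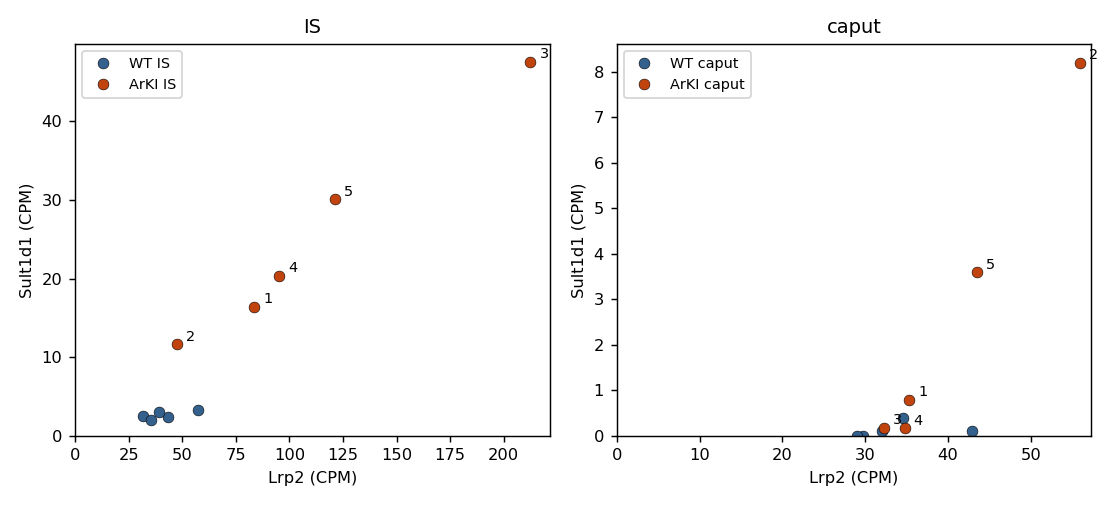
*Sult1d1* level against *Lrp2* level (both CPM) in the IS (left) and caput (right), 1 point per sample, WT in blue and ArKI in red with the replicate number. In the ArKI IS both genes rank the 5 samples alike, from 11.6 and 47.6 CPM in replicate 2 to 47.5 and 212 CPM in replicate 3, and in the ArKI caput replicates 2 and 5 stand apart with 8.20 and 3.59 CPM of *Sult1d1*.

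In the caput *Sult1d1* was near the floor and too low for the filter, except in 2 ArKI samples. Raw counts were 4, 0, 1, 0 and 1 in WT caput and 7, 39, 2, 2 and 46 in ArKI caput. ArKI replicates 2 and 5 held most of the signal, at 8.20 and 3.59 CPM, and the other ArKI samples were at 0.162 to 0.795 CPM. *Lrp2* was also highest in these 2 samples, at 56.0 and 43.5 CPM against 32.3 to 35.3 CPM in the other ArKI samples, but reached 42.9 CPM in a WT sample. *Pax8* was highest in them too, at 236 and 218 CPM against 191 to 215 CPM. *Aqp1* was lowest in them, at 35.3 and 35.5 CPM against 42.4 to 46.1 CPM. *Esr1*, at 38.5 and 43.0 CPM, lay within the 36.2 to 46.7 CPM of the other ArKI samples. *Slc9a3*, a sodium-proton exchanger of the efferent ducts, had no count in WT caput and 2 counts each in ArKI replicates 2 and 5, with 1 count in replicate 4. The efferent duct list summed to 220 to 270 CPM in WT caput and 304 to 366 CPM in ArKI caput, with 3 of its 4 tested genes higher, and its part in these values was not tested. The IS principal cell list summed to 927 and 1157 CPM in these 2 samples and to 737 to 4283 CPM in WT caput, and its member *Ros1*, a receptor tyrosine kinase, was at 266 to 303 CPM in WT caput and 316 to 388 CPM in all 5 ArKI caput samples, lowest in replicate 2 and highest in replicate 5. The part of IS tissue was not tested. *Crisp1* of the caput principal cell list was also highest in these 2 samples, at 2689 and 859 CPM. It was at 103 to 504 CPM in the other ArKI samples and at 16.9 to 855 CPM in WT caput. That list as a whole was lowest in these 2 samples, at 44788 and 60037 CPM against 60400 to 73338 CPM in the other ArKI samples. The part of caput principal cells was not tested either. The ratio of summed counts, ArKI over WT, was 14.9 (95% interval 6.62 to 41.7, counting error only) and 2.62 (0.890 to 8.64) without replicates 2 and 5. With no filter beyond 1 count the log2 difference was 3.98 ± 1.52, which did not pass (adjusted p = 0.106).

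*Sult1b1*, which lies next to *Sult1d1*, was counted at a far lower level. It had 1, 1, 0, 0 and 0 counts in the WT IS and 5, 6, 6, 3 and 4 counts in the ArKI IS, without overlap, and a ratio of summed counts of 13.9 (95% interval 3.46 to 121, counting error only). It did not reach the low-count filter, and with no filter beyond 1 count its log2 difference was 3.41 ± 0.73 (adjusted p = 0.000637 over 18681 genes). In the ArKI caput, replicates 2 and 5 had 4 and 5 counts and the other 3 samples had 0, while WT caput had 1 count in all. Of 10 genes flanking *Sult1e1*, 5 on each side, only *Sult1d1* passed the filter in the IS, and the casein genes and Ugt2 genes among them had at most 4 counts in any sample. The last of the 10, *Prr27* (4930432K09Rik in the count table), had 14 to 29 counts in WT caput and 4 to 15 counts in ArKI caput, which overlapped. Its mean was lower in ArKI caput, at 1.09 CPM against 2.48 CPM in WT. It passed the filter there only through the WT samples, so no test is given for it.

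*Sult2b1*, the cholesterol sulfotransferase, was the member that fell in the ArKI IS. WT IS samples had 14.7, 14.2, 17.0, 12.1 and 14.6 CPM, and ArKI IS samples 8.27, 8.31, 7.97, 8.80 and 7.76 CPM. The groups did not overlap, and the ArKI samples lay close together. The log2 difference was -0.83 ± 0.11 (1.77-fold lower, adjusted p = 1.05e-05). The smooth muscle list was lower in the same samples, with all 5 of its genes down (*Acta2* by a log2 difference of -0.93 ± 0.16, adjusted p = 0.00254). In the basal cell list 3 of 5 genes fell, among them *Krt5* (-0.66 ± 0.10, adjusted p = 0.00039), and in the immune cell list 2 of 5 tested genes fell. The part of these lists in the value of *Sult2b1* was not tested.

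In the caput the level of *Sult2b1* was 18.9, 14.9, 18.8, 16.8 and 18.4 CPM in WT and 14.3, 21.9, 15.8, 16.9 and 14.1 CPM in ArKI samples, so the groups overlapped. The log2 difference was -0.12 ± 0.11 (95% interval -0.34 to 0.11), which did not pass, and none of the 5 smooth muscle genes passed there. The highest of these samples, ArKI caput replicate 2, was the shallowest library and had the highest smooth muscle sum (1300 CPM). The ArKI effect on *Sult2b1* differed between segments by 0.70 ± 0.16 on the log2 scale (caput minus IS, adjusted p = 0.00314), where 7.38% of 14329 genes passed with a positive and 7.77% with a negative difference.

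*Sult5a1*, the member with the highest level per length in the WT IS, rose in the ArKI caput. In the WT caput it was at 22.1, 17.1, 25.9, 26.3 and 19.4 CPM, and in the ArKI caput at 37.7, 43.1, 49.1, 30.5 and 48.1 CPM. All ArKI samples were above all WT samples, with a log2 difference of 0.91 ± 0.16 (1.88-fold, adjusted p = 0.00139). It was the only one of 4 tested members other than *Sult1e1* to pass in the caput, where 13.7% of 13726 genes passed as higher and 14% as lower in ArKI, and the median was 0.11 over the 4 members and 0.00 over all genes. In the IS the levels were 144, 161, 128, 134 and 105 CPM in WT and 132, 121, 127, 123 and 143 CPM in ArKI samples, which overlapped, with a log2 difference of -0.05 ± 0.10 (adjusted p = 0.728, 95% interval -0.24 to 0.14). The difference of the ArKI effect between the segments was 0.96 ± 0.20 (adjusted p = 0.00242). Of the members tested for it other than *Sult1d1*, 2 passed, *Sult5a1* and *Sult2b1*, both more positive in the caput. *Sult1c2* (-0.82 ± 0.33, adjusted p = 0.0936) and *Sult1a1* (-0.22 ± 0.19, adjusted p = 0.494) did not pass. *Sult1d1* passed the filter there only through its IS samples, so no test is given for it. Its fitted difference of 0.59 ± 1.64 turned to -0.43 with limma voom and to -1.95 without ArKI caput replicates 2 and 5. The median over all genes was -0.00. *Sult5a1* is itself higher in the WT IS than in the WT caput. The IS principal cell list summed to 737 to 4283 CPM in WT caput and 927 to 2920 CPM in ArKI caput, and 1 of its 6 genes passed, *Ros1*, at 266 to 303 CPM in WT and 316 to 388 CPM in ArKI caput (log2 difference 0.36 ± 0.05, adjusted p = 0.000107). Of the others, *Lcn8*, *Lcn9* and *Cst8* had lower means in ArKI caput with overlapping samples and did not pass, *Lcn8* for example at 39.9 to 1081 CPM in WT and 26.7 to 359 CPM in ArKI caput. The efferent duct list was also higher, as given above. The part of either list in the value of *Sult5a1* was not tested.

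*Sult1a1*, the phenol sulfotransferase, rose by less. Its level was 9.23, 9.66, 11.0, 8.79 and 9.82 CPM in the WT IS and 14.3, 11.3, 14.0, 15.7 and 11.8 CPM in the ArKI IS, without overlap. The log2 difference was 0.46 ± 0.11 (1.38-fold, adjusted p = 0.00453). In the caput, WT samples had 10.4 to 15.02 CPM and ArKI samples 12.7 to 22.1 CPM, and the log2 difference of 0.24 ± 0.15 did not pass (adjusted p = 0.257, 95% interval -0.05 to 0.53). The effects in the segments differed by -0.22 ± 0.19 (adjusted p = 0.494), so a difference between them was not shown.

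*Sult1c2* passed in the IS on the weakest evidence. WT IS samples had 2.39, 2.36, 3.86, 3.06 and 2.65 CPM and ArKI IS samples 4.01, 2.90, 9.32, 4.48 and 4.33 CPM. The groups overlapped, and ArKI replicate 3 was far above the rest, as for *Sult1d1* and *Lrp2*. The log2 difference was 0.80 ± 0.28 (adjusted p = 0.0358), which fell to 0.46 (adjusted p = 0.124) without ArKI replicate 3. The test was also no longer passed without ArKI replicate 4 or without WT replicate 1, 2, 4 or 5 (log2 differences 0.74 to 0.84, adjusted p 0.0515 to 0.0870), nor with limma voom (adjusted p = 0.0512). In the caput its log2 difference was -0.02 ± 0.17 (adjusted p = 0.961, 95% interval -0.35 to 0.31), with 2.85 to 4.19 CPM in WT and 3.07 to 3.79 CPM in ArKI samples.

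**Figure D3:**
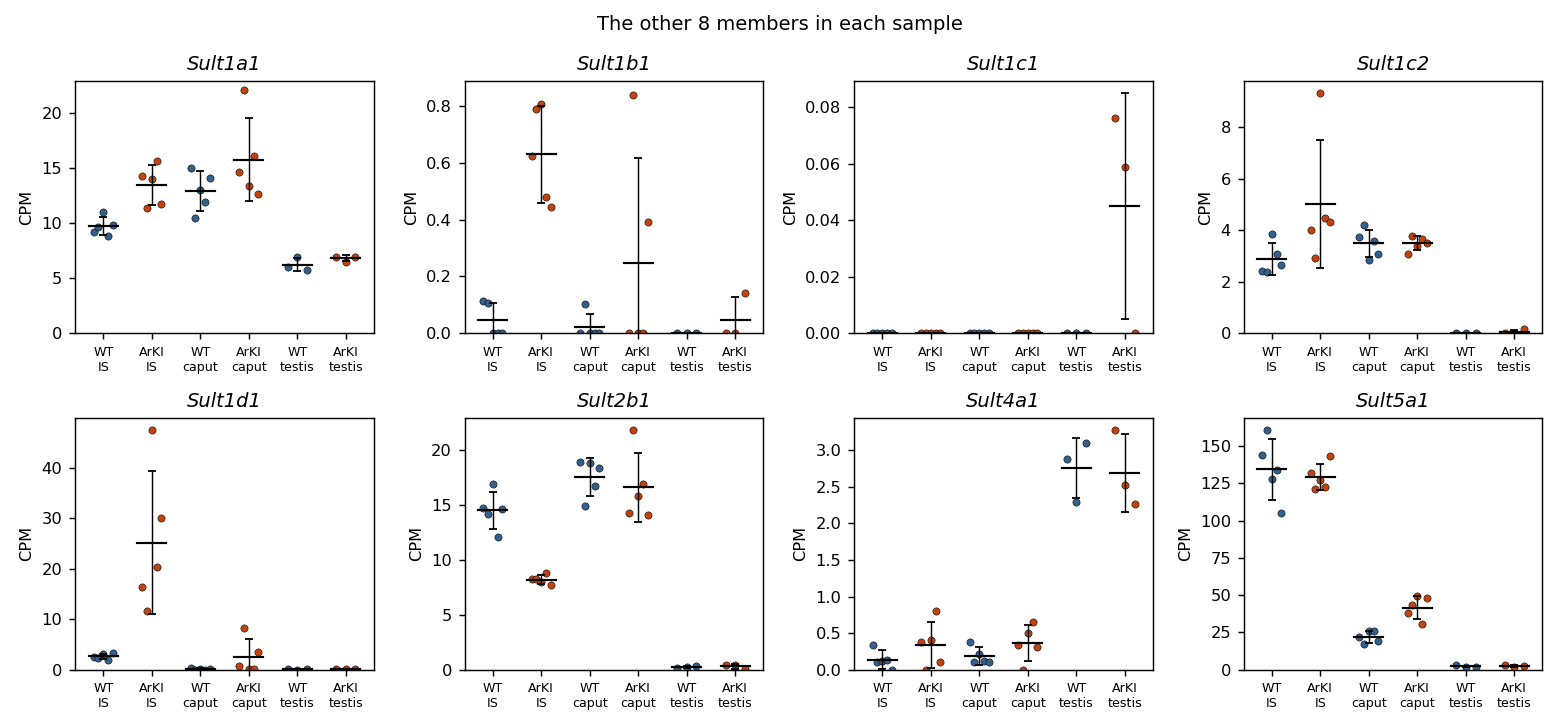
Level (CPM, linear axes from 0, a scale of its own for each gene) of the 8 members other than *Sult1e1* in each sample of the 6 groups, WT in blue and ArKI in red, with lines at the means and bars of 1 SD. *Sult1d1* is raised in the 5 ArKI IS samples and in 2 ArKI caput samples, *Sult2b1* is lowered in the ArKI IS, and *Sult5a1* is raised in the ArKI caput.

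In the testis, 3 of the 8 other members passed the filter and 0 passed the test in edgeR, DESeq2 or limma voom, and 0 had an unadjusted p below 0.05. Among all 15838 genes tested there, 1.64% passed as higher and 0.328% as lower in ArKI. *Sult1a1* was at 5.97, 6.89 and 5.76 CPM in WT and 6.95, 6.47 and 6.93 CPM in ArKI testis (log2 difference 0.10 ± 0.14, 95% interval -0.18 to 0.39, adjusted p = 0.817). *Sult4a1* was at 2.88, 2.30 and 3.10 CPM in WT and 3.28, 2.53 and 2.26 CPM in ArKI testis (-0.07 ± 0.22, interval -0.50 to 0.36, adjusted p = 0.931). *Sult5a1* gave 0.13 ± 0.24 (interval -0.35 to 0.60, adjusted p = 0.875). All 3 sets of samples overlapped, and the median log2 difference of the 3 members was 0.10 against -0.00 over all genes. *Sult1b1*, *Sult1c1*, *Sult1c2*, *Sult1d1* and *Sult2b1* did not exceed 7 counts in any sample of testis.

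**Figure D4:**
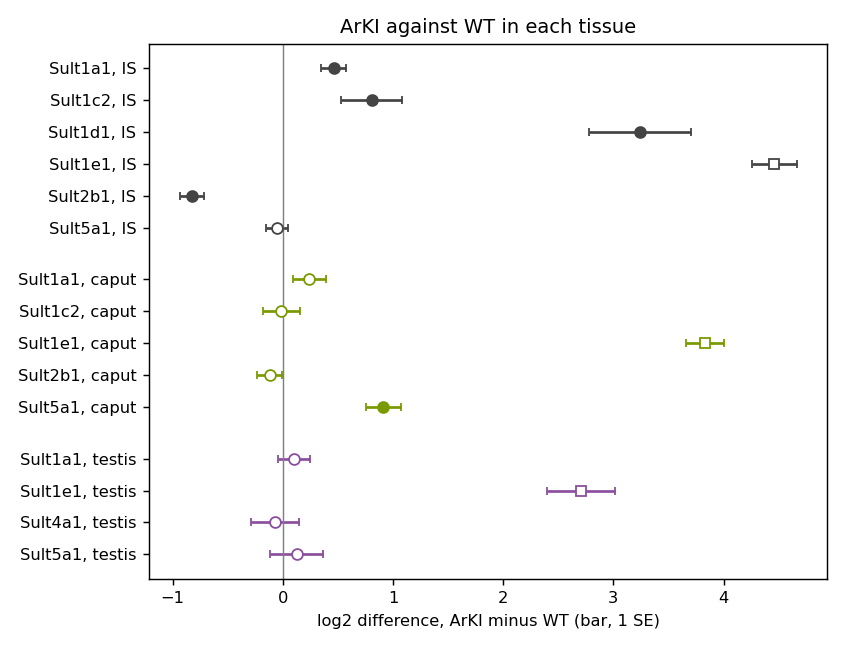
Log2 difference between ArKI and WT (horizontal axis, bars 1 SE) for each member that passed the low-count filter in the IS, caput and testis. Filled circles passed the test at an adjusted p below 0.05, open circles did not, and squares mark *Sult1e1*, which was not tested. The squares lie at 4.46, 3.83 and 2.70, and the only other member beyond 1 is *Sult1d1* in the IS at 3.24.

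The make-up of the family is given as a description, since the *Sult1e1* values that chose the gene enter every sum and share. The summed level of the 9 members was 52.1 to 64.8 CPM per kb in WT IS and 104 to 146 in ArKI IS, 30.8 to 40.4 in WT caput and 98.9 to 130 in ArKI caput, and 14.8 to 26.9 in WT testis and 98.6 to 117 in ArKI testis. Without *Sult1e1* the sums overlapped in the IS (49.4 to 63.1 in WT and 53.6 to 75.3 in ArKI), overlapped narrowly in the caput (26.5 to 34.4 and 34.3 to 50.8) and did not overlap in the testis, where they were low (6.32 to 6.72 and 6.78 to 7.73). The share of the sum held by *Sult1e1* was 4.34% ± 0.981 (SD) in WT IS and 46.5% ± 5.55 in ArKI IS, 13.4% ± 3.63 in WT caput and 64.5% ± 3.02 in ArKI caput, and 67.9% ± 9.43 in WT testis and 93.3% ± 0.705 in ArKI testis. *Sult5a1* held 59.3% ± 5.27 in the WT IS and 28.7% ± 3.77 in the ArKI IS, while its own level there did not pass the test. *Sult2b1*, first in the WT caput at 39.0% ± 1.10, held 12.2% ± 1.48 in the ArKI caput, where its level did not pass either. A larger share of *Sult1e1* lowers the other shares by construction.

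**Figure D5:**
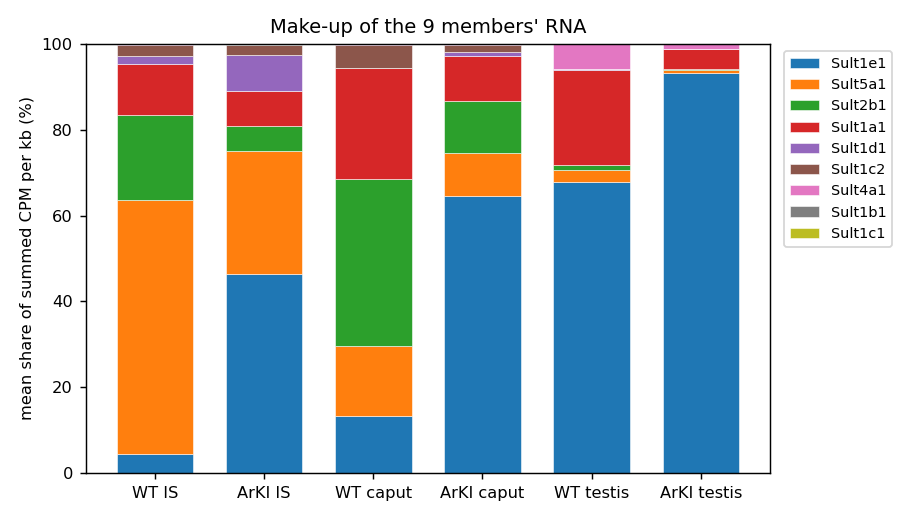
Mean share of each member in the summed CPM per kb of the 9 members (vertical axis, percent, stacked to 100) for the 6 groups. The lowest block, *Sult1e1*, is 4.34%, 13.4% and 67.9% of the sum in WT IS, caput and testis and 46.5%, 64.5% and 93.3% in the ArKI tissues.

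Between WT segments, 3 of 4 members passed, 1 higher and 2 lower in the IS than in the caput, leaving out *Sult1e1* and *Sult1d1*, which passed the filter only through its IS samples. Of 13787 genes tested, 35.8% passed as higher and 35.4% as lower, so segment differences were common. *Sult5a1* was higher in the IS by 2.60 ± 0.15 (adjusted p = 1.75e-07), without overlap. *Sult1d1* had 15 to 33 counts per WT IS sample and 0 to 4 per WT caput sample. *Sult1a1* (-0.42 ± 0.11, adjusted p = 0.00236) and *Sult2b1* (-0.28 ± 0.10, adjusted p = 0.0150) were lower in the IS with overlapping samples. *Sult1c2* did not pass (-0.30 ± 0.19, adjusted p = 0.175).

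Between WT testis and the WT segments, 2 members could be compared by test, *Sult1a1* and *Sult5a1*, and both passed against both segments. Of 16402 genes tested, 49.4% passed as higher and 42.5% as lower in testis than in IS, and 48.8% and 43.2% than in caput. *Sult5a1* was lower in testis, with a log2 difference of -5.82 ± 0.23 against IS (adjusted p = 1.66e-11) and -3.23 ± 0.27 against caput (adjusted p = 6.27e-08). *Sult1a1* was also lower, with -0.60 ± 0.14 (adjusted p = 0.000318) and -1.02 ± 0.13 (adjusted p = 1.48e-07), and neither gene overlapped. The choice of scaling moved the median gene by -0.41 (IS) and -0.39 (caput) on the log2 scale with library size only, and by 0.11 and 0.12 with RLE factors, and neither member changed direction. *Sult1c2*, *Sult1d1*, *Sult2b1* and *Sult4a1* passed the filter only through the tissue or tissues in which they were high, so they are given by their counts. *Sult4a1* had 26 to 40 counts per WT testis sample and at most 4 per WT epididymal sample. *Sult2b1* had 2 to 4 counts per WT testis sample and at least 91 per WT epididymal sample. *Sult1c2* had no count in WT testis, where 3 counts would put it at least 10.8-fold lower than in WT IS and at least 13.2-fold lower than in WT caput. *Sult1d1* had at most 3 counts per WT testis sample and at most 4 per WT caput sample.

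Of the further cytosolic sulfotransferases in the table, most had too few counts to be tested, and the highest counts were those of Sult2a genes in the ArKI caput. These enzymes sulfate hydroxysteroids such as dehydroepiandrosterone and bile acids and are best known from liver. Of 11 genes, 0 passed the filter in the IS, 2 in the caput and 1 in the testis. *Sult2a5* had 3, 0, 8, 3 and 1 counts in WT caput and 45, 12, 44, 62 and 61 counts in ArKI caput. *Sult2a6* had 1, 0, 2, 1 and 0 counts in WT caput and 32, 6, 44, 50 and 48 counts in ArKI caput. Neither gene overlapped between the groups, but both passed the filter only through the ArKI samples, so no test is given for them. *Sult2a1* had 1 count in all in WT caput and 8, 1, 5, 11 and 6 counts in ArKI caput, a ratio of 28.9 (95% interval 4.82 to 1180, counting error only).

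The Sult2a genes are close copies, and the split of reads between them is uncertain. The coding sequence of *Sult2a5* is 94.9% identical to that of *Sult2a1* and 88.5% identical to that of *Sult2a6*, and 34.5% of the 50-base stretches of *Sult2a5*, 33.2% of those of *Sult2a1* and 7.35% of those of *Sult2a6* occur in another gene. ArKI caput replicates 2 and 5 did not lead here, since replicate 2 was lowest for both genes at 2.52 and 1.26 CPM. In the IS, *Sult2a5* had at most 4 counts in any sample. *Sult6b1*, seen in the testis, had 16, 7 and 14 counts in WT and 10, 4 and 4 counts in ArKI samples (log2 difference -1.30 ± 0.45, adjusted p = 0.184).

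Genes that act beside the sulfotransferases were counted against all genes tested, of which 15% rose and 14.6% fell in the IS, 13.7% rose and 14% fell in the caput, and 1.64% rose and 0.328% fell in the testis. Of 12 genes for sulfate uptake and PAPS supply, 10 were tested in each tissue. In the IS 0 rose (0 at an unadjusted p below 0.05, and 0 by DESeq2 or limma voom) and 1 fell, the sulfate transporter *Slc26a2* (-0.55 ± 0.10, adjusted p = 0.000239). In the caput *Slc26a2* rose (0.47 ± 0.12, adjusted p = 0.00634) and *Slc13a4*, a sodium sulfate cotransporter, fell (-1.90 ± 0.30, adjusted p = 0.000249), and a second gene fell when ArKI caput replicate 2 was left out. In the testis 0 passed by any of the 3 tools, with 1 at an unadjusted p below 0.05. The synthases *Papss1* and *Papss2*, which make PAPS, were among the tested genes that did not pass in any tissue. The median log2 difference of the list was -0.00 in the IS, -0.02 in the caput and 0.10 in the testis.

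Sulfatases, which remove sulfate, and the sulfotransferases of the Golgi, which modify sugars and proteins, were compared as relatives of other function. Of 12 sulfatases tested, 1 rose and 1 fell in the IS, the extracellular *Sulf2* (0.33 ± 0.09, adjusted p = 0.0109) and the lysosomal *Arsb* (-0.21 ± 0.06, adjusted p = 0.00628). In the caput *Galns*, a lysosomal sulfatase, rose without overlap (1.47 ± 0.14, adjusted p = 4.92e-06) and *Arsb* fell (-0.31 ± 0.08, adjusted p = 0.00596), and in the testis *Sulf2* rose (0.41 ± 0.08, adjusted p = 0.00263). Each of the 4 epididymal counts of 1 became 2 without 1 sample, for rises ArKI IS replicate 1 or 4, WT caput replicate 1 or ArKI caput replicate 3, and for falls ArKI IS replicate 3 or ArKI caput replicate 2 or 3. Of 19 Golgi enzymes tested in each segment, 2 rose and 7 fell in the IS (15% and 14.6% of all genes), and 6 rose and 3 fell in the caput (13.7% and 14% of all genes). The heparan sulfate enzyme *Hs3st1* rose in both (0.89 ± 0.12, adjusted p = 2.14e-05, and 1.03 ± 0.14, adjusted p = 2.39e-05), and *Hs6st1* fell in both (-0.35 ± 0.05, adjusted p = 2.35e-05, and -0.34 ± 0.06, adjusted p = 0.000213). The largest fall in the IS was that of *Gal3st3* (-1.24 ± 0.19, adjusted p = 4.65e-05), which sulfates galactose. *Chst15* fell in the IS (-0.62 ± 0.17, adjusted p = 0.00859) and rose in the caput (0.74 ± 0.17, adjusted p = 0.00324). In the testis 0 of 24 Golgi enzymes passed by edgeR, DESeq2 or limma voom, with 5 at an unadjusted p below 0.05, and 1 passed without WT replicate 1 or without ArKI replicate 1.

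Among genes of estrogen synthesis, reception and conjugate transport, 10 were tested in the IS, of which 3 rose and 1 fell, beside 15% and 14.6% of all genes. *Esr1* rose in both segments, by 0.72 ± 0.21 in the IS (adjusted p = 0.0325) and 0.65 ± 0.10 in the caput (adjusted p = 0.000227), without overlap in either. *Esr2*, the second estrogen receptor, fell in the caput (-0.71 ± 0.15, adjusted p = 0.00213) with overlapping samples. *Slc10a6*, a carrier that takes up steroid sulfates, had 4 to 7 counts in WT and 14 to 26 counts in ArKI caput and passed the filter only through ArKI samples, so it is left out of the count. The efflux pump *Abcc4*, which carries conjugates out of cells, fell in the IS (-0.58 ± 0.08, adjusted p = 6.13e-05). Of the other 10 genes tested in the caput 3 rose and 2 fell, beside 13.7% and 14% of all genes. The 3 rises in the IS became 1 without ArKI IS replicate 5, and the rises in the caput, 4 with *Slc10a6*, became 2 without WT caput replicate 1, 2, 3 or 5 or without ArKI caput replicate 1. In the testis 0 of 13 genes passed by edgeR, DESeq2 or limma voom, with 3 at an unadjusted p below 0.05. The median log2 difference of the list was 0.05 in the IS, 0.05 in the caput with *Slc10a6* included, and 0.06 in the testis.

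The genes whose level most resembled that of *Sult1e1* over the 20 epididymal samples were *Adh1*, an alcohol dehydrogenase (Pearson r = 0.981 of log2 CPM plus 0.5), *C4b* of the complement system (0.974), *Cadm3*, a cell adhesion molecule (0.972), *Prickle1* (0.970) and *Igf1*, an insulin-like growth factor (0.954). These values describe samples that fall into 4 groups and follow the group differences for the most part. By Spearman's rho 2 of the 5 were again among the first 5, *Prickle1* and *Adh1*. The closest gene differed for each of the other members that could be compared, with *Eps8* for *Sult1d1* (r = 0.962), *Vldlr* for *Sult5a1* (0.982), *Actb* for *Sult2b1* (0.942), *Mt2* for *Sult1a1* (0.933) and *Kifc3* for *Sult1c2* (0.848). By Spearman's rho the closest gene was the same for *Sult1d1* and *Sult1a1* and another one for *Sult5a1*, *Sult2b1* and *Sult1c2*.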

How the data were processed

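RNA-seq of 26 samples was analysed (50-base single-end reads). The authors aligned reads to mm10 with STAR, counted uniquely mapped reads per RefSeq gene with Subread 1.5.1 and deposited raw counts for 23337 genes. Whether strand was used in counting is not given in the sources used here, so reads of antisense partners cannot be told apart. Counts were filtered by filterByExpr (minimum count 10, minimum total 15), scaled by TMM and tested per comparison with edgeR 4.0.16 (robust quasi-likelihood, R 4.3.3), with Benjamini-Hochberg adjustment over all genes tested and a threshold of 0.05. SE is the absolute log2 difference over the root of F, and 95% intervals are normal intervals from it. The test named in the paper's methods, ROTS on voom values, was not run. CPM levels were scaled over all 26 samples together. Coordinates and windows come from RefSeq (GRCm38.p6), transcript and coding lengths from GENCODE M21. Named list genes were up to 3 rises and 3 falls per tissue, from which examples are given, and *Papss1*, *Papss2*, *Hs6st1* in the IS and single marker genes were named after their values were seen. Alternatives were RLE factors, library size only, other filters, DESeq2 1.42.0, limma 3.58.1 voom, a replicate block, single omissions, the study's thresholds and a fit of 20 epididymal samples. Fits were tested on simulated data. The members and lists were chosen with earlier results of these data known. The sources differ on the library kit, one stranded and one not.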

Additional observations from a re-analysis of the deposited data

Results flagged for a closer look

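The ArKI effect on *Sult2b1* differed between segments by a log2 difference of 0.70 (caput minus IS), and that on *Sult5a1* by 0.96, in the test of the difference itself. Among the members, *Sult1b1* in WT caput replicate 2 stood apart from the other 4 samples of its group by Dixon's criterion (ratio 1), with 1 count against 0 in each of the others. Of 32 groups of 5 examined over the members, 1 stood apart, where chance flags about 1 in 20.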

How the results depend on the processing

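The number of members that passed stayed within 1.5 times of the count in the design used under 133 of 138 alternatives. Between WT tissues that count includes *Sult1e1* and members that passed the filter only through the tissue in which they were high. It is therefore larger there than the number reported above as passed. In the testis it was 0 under every alternative. The study's thresholds (adjusted p below 0.01 and 2-fold in the epididymis) left 1 member in the IS, *Sult1d1*, and 0 in the caput. The fit of all 20 epididymal samples gave 2 in the caput, but the added *Sult1d1* entered only through its IS samples and is not taken as a call. Requiring 10 counts in every sample left 3 members in the testis comparisons with IS and with caput, because fewer members were tested. They were *Sult1a1*, *Sult5a1* and *Sult1e1*, from the fuller counts of 7 (IS) and 6 (caput), and *Sult1e1* is not taken as a call. Single omissions gave 3 to 4 members in the IS, 1 in the caput, 0 in the testis and 2 to 3 in the interaction, where *Sult1c2* was added without ArKI IS replicate 2 (-0.97, adjusted p = 0.0356).
Of the log2 differences of single members, 773 kept side and direction. These include *Sult1e1*, judged in the ArKI comparisons only by a shift below the SD of its samples, with a direction its choice fixes. They also include members that passed the filter only through the tissue in which they were high. Another 7 of *Sult1c2* in the IS were no longer past the threshold, and 14 changed sign, none of them of a member that passed. For *Sult1c2* in the caput these were 0.019 with library size only, 0.010 with the replicate block and -0.080 to 0.058 over single omissions. Omissions gave -0.13 to 0.017 for *Sult5a1* in the IS, -0.022 to 0.37 for it in the testis and -0.23 to 0.026 for *Sult4a1* in the testis. *Sult1d1* gave -1.30 to 0.85 between WT testis and caput. Its interaction, reported as 0.59, was -0.43 with limma voom, -0.11 to 1.62 over omissions and -1.95 without ArKI caput replicates 2 and 5, an alternative chosen after seeing the data. The causes were not tested.
Counting also the members that passed the filter only through the tissue in which they were high and, between WT tissues, *Sult1e1*, the comparisons gave 4 (IS), 1 (caput), 0 (testis), 5 (WT segments), 2 (interaction), 7 and 6 (WT testis with IS and with caput) members, the same numbers with the replicate block. Samples of equal number correlated at -0.19 to 0.21 and not always best with each other, so the numbers were not taken as pairs. Members below the floor of 3 counts, mainly *Sult1c1* and *Sult1b1*, are limited by depth.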
